A study of Mus musculus with 6 samples.

Results

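Tudor domain genes of the piRNA granules were taken as the 10 genes Tdrd1, Tdrd3, Tdrd5, Tdrd6, Tdrd7, Tdrd9, Tdrd12, Tdrkh, Stk31 and Rnf17, by matching the Ensembl identifiers of the authors' deposited table to GENCODE M21. All 10 were among the 22432 genes of the table, and all 10 had an adjusted p-value. Of these, 8 were lower in CDH1+/THY1+ than in CDH1-/THY1+ cells by the authors' DESeq2 test (adjusted p under 0.05), 0 were higher and 2, Tdrd3 and Tdrd12, were not called. At an unadjusted p under 0.05 the counts were also 8 and 0. Over all tested genes, 33.5% were called, 16.4% lower and 17.1% higher.

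The 6 samples were total RNA of male germline stem cells of the mouse, the founder cells of spermatogenesis, grown on DR4 feeder fibroblasts. Cells positive for the surface glycoprotein THY1 were compared with and without surface CDH1, which is E-cadherin, a protein of cell-cell junctions, with 3 samples of each population. Each population held 1 sample of the cultures RP7, RP5 and WT1, labelled as male, at passage 6 to 8. The strain label was OCT4/GFP; Dox-OCT4 for RP7 (age 8 weeks) and RP5 (age 19 days), and C57BL/6 for WT1 (age 5 weeks). The labels name no Dox treatment of any sample, so the groups are described only as far as the sorted surface proteins, the strain and the age. No label says that the 2 samples of a culture name came from 1 dish, and no label ties a culture to a number of animals. The spread between these samples may therefore be technical in part. The 3 samples of a population also differ in culture and age, and WT1 differs in its strain label. The authors' model is not given, so whether the p-values include or set aside these differences is unknown.

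The table held 1 comparison and no value per sample, so spread within a population cannot be shown, and the standard errors are those of the authors' test. It gave, for each gene, the mean normalised count over all 6 libraries, the log2 fold change of CDH1+/THY1+ relative to CDH1-/THY1+ cells, its standard error and an adjusted p-value from the authors' DESeq2 Wald test. A gene was called higher or lower at an adjusted p under 0.05. The direction rests on the name of the table, and Cdh1 itself was not analysed here. Depth per sample is unknown. Mean normalised counts summed to 16900379 over all genes, with a median of 97.5 per gene. The adjusted p-values came from 19743 tests, of which 532 are not analysed here, so counts over all genes cover the genes analysed. The ranks of the p-values give 6970 calls among all tests, 35.3%, beside 6438 among the genes analysed, 33.5%. The shares lower and higher over all tests are therefore not known. A p-value was lacking for 102 genes, of which 98 had a log2 fold change above 0 in the authors' deposited table, and none of the 10 Tudor genes was among them.

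The Tudor domain is a small barrel-shaped fold that binds methylated arginine or lysine. In the male germline, Piwi proteins carry symmetrically methylated arginines at their amino terminus, and proteins with several Tudor domains bind these and gather Piwi proteins, helicases and RNA into cytoplasmic granules beside mitochondria. There the small piRNAs are made that silence transposons. Loss of many of these Tudor proteins in mice stops spermatogenesis and leaves males sterile.

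The 250 bases before the most upstream start site are shown for 4 members. Tdrd1, Tdrd9 and Stk31 are shown because they were among the 4 members with the lowest fold changes and their start regions hold the E-box CACGTG. Tdrd12 is shown as a member that was not called and whose start region does not hold that word. Tdrd5, Tdrd7 and Tdrkh, which were called lower, do not hold it either and are not shown. Sequences are from RefSeq on GRCm38.p6, 5′ to 3′ on the strand of the gene, with CACGTG in capitals. They cover chr19:56825959-56826208 (plus strand), chr12:111971309-111971558 (plus strand), chr6:49395289-49395538 (plus strand) and chr7:35537745-35537994 (minus strand).
Tdrd1: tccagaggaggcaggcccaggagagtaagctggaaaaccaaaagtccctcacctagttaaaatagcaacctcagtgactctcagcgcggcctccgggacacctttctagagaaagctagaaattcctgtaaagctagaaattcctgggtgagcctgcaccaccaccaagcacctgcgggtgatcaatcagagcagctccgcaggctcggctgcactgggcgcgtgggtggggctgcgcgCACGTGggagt
Tdrd9: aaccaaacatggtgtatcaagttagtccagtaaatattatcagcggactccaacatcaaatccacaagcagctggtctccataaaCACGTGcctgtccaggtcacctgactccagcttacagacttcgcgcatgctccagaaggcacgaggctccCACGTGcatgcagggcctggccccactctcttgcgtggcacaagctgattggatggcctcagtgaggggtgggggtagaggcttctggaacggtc
Stk31: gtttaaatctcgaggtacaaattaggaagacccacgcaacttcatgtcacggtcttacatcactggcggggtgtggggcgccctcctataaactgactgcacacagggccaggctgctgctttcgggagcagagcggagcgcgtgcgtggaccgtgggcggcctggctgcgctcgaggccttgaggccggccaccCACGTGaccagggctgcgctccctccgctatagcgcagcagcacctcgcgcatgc
Tdrd12: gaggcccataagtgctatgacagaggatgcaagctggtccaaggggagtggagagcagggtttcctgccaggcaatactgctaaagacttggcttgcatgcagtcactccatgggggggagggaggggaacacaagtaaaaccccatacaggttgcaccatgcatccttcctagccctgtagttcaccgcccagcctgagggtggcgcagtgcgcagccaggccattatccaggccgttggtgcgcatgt

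Among the scaffold proteins and helicases of fetal and neonatal piRNA granules, Tdrd1 and Tdrd9 had the lowest fold changes of the 10 genes. Tdrd1, a multi-Tudor scaffold that binds the Piwi protein MILI, is protein-coding and lies at chr19:56826209-56870012 on the plus strand. Its mean normalised count in the authors' deposited table was 2904, the highest of the 10. Tdrd1 fell by 2.22 ± 0.20 on the log2 scale (standard error, 3 samples per population, adjusted p = 2.46e-27 by DESeq2 in the authors' deposited table), which is 4.65-fold lower. Of 19211 tested genes, 52 had a lower fold change than Tdrd1.

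Tdrd9, an RNA helicase with a Tudor domain that works with the Piwi protein MIWI2 in transposon silencing, lies at chr12:111971559-112068854 on the plus strand. It fell by 2.01 ± 0.20 on the log2 scale (adjusted p = 1.17e-20 by DESeq2 in the authors' deposited table), 4.02-fold lower, at a mean normalised count of 1171. The genes of the Piwi proteins that bind these 2 Tudor proteins fell too. Piwil2, which encodes MILI, had -1.88 ± 0.22 and Piwil4, which encodes MIWI2, -1.79 ± 0.18 in the authors' deposited table. Whether Tdrd1 and Piwil2, or Tdrd9 and Piwil4, differed in their change was not tested.

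Tdrd12, a helicase-like Tudor protein needed for the piRNAs that load MIWI2, did not follow them. It lies at chr7:35469098-35537745 on the minus strand, and RefSeq lists ECAT8 among its synonyms. Its log2 fold change was 0.17 ± 0.32 (adjusted p = 0.723 by DESeq2 in the authors' deposited table) at a mean normalised count of 858. The 95% interval from the standard error ran from -0.45 to 0.80 on the log2 scale. The standard error of Tdrd12 was larger than that of 95.5% of the 200 genes nearest in mean count. A missed threshold with such an interval does not show equal levels in the populations.

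Tdrkh (chr3:94413273-94434668, plus strand) encodes a mitochondrial membrane protein with a Tudor and KH domains that brings Piwi proteins to the trimming enzyme PNLDC1. It fell by 1.44 ± 0.19 on the log2 scale (adjusted p = 5.06e-13 by DESeq2 in the authors' deposited table), 2.71-fold lower, at a mean normalised count of 526. Of the partners that act at the same place, Pnldc1 had -1.33 ± 0.23 in the authors' deposited table, and Pld6, the mitochondrial nuclease that cuts piRNA precursors, -1.09 ± 0.29, both called lower. Of the exon bases of Tdrkh, 36.7% overlap exons of Oaz3 on the opposite strand. Oaz3 had a mean normalised count of 1.51 in the authors' deposited table, against 526 for Tdrkh. How the authors' counting treated strand is not given in the sources used here.

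Tdrd5, Tdrd7 and Tdrd6 encode proteins of the chromatoid body, the large granule of later spermatogenic cells. Tdrd5 (chr1:156255296-156303664, minus strand), needed for the assembly of that granule and for pachytene piRNAs, fell by 1.60 ± 0.21 on the log2 scale (adjusted p = 1.81e-12 by DESeq2 in the authors' deposited table), 3.03-fold lower. Tdrd7 (chr4:45965334-46034761, plus strand), a granule protein that is also needed in the lens of the eye, fell by 0.998 ± 0.20 on the log2 scale (adjusted p = 5.68e-06 by DESeq2 in the authors' deposited table). This change, just under 2-fold, was the smallest of the 8 called members.

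Tdrd6 (chr17:43615335-43630299, minus strand), a chromatoid body protein of spermatids, was by far the least abundant member, with a mean normalised count of 21.3 in the authors' deposited table. It had a log2 fold change of -1.89 ± 0.54 (adjusted p = 0.00233 by DESeq2 in the authors' deposited table). Its 95% interval ran from -2.94 to -0.83, the widest of the 10 members, so its rank among them is poorly fixed.

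Stk31 and Rnf17 are the remaining members. Stk31 (chr6:49395604-49469501, plus strand), which joins a Tudor domain to a kinase-like domain, fell by 1.72 ± 0.19 on the log2 scale (adjusted p = 3.72e-18 by DESeq2 in the authors' deposited table), 3.29-fold lower, at a mean normalised count of 2834. Rnf17 (chr14:56402581-56525032, plus strand), a RING finger and Tudor protein of spermatocyte and spermatid granules, fell by 1.27 ± 0.12 (adjusted p = 1.03e-22 by DESeq2 in the authors' deposited table), 2.41-fold lower, at a mean normalised count of 2804. The standard error of Rnf17 was larger than that of only 5% of the 200 genes nearest in mean count, against 78.5% for Stk31. Of the 10 members, 8 had a standard error above the median of such genes, with Rnf17 and Tdrd3 as the exceptions.

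Tdrd3 (chr14:87416639-87545504, plus strand) is the 1 member whose known role lies outside piRNA granules. It is a widely expressed protein that binds methylated arginine on histones and on RNA polymerase and works with the topoisomerase TOP3B. Its log2 fold change was -0.01 ± 0.14 (adjusted p = 0.968 by DESeq2 in the authors' deposited table) at a mean normalised count of 672. The 95% interval ran from -0.28 to 0.26, which is narrower than that of Tdrd12.

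**Figure D1:**
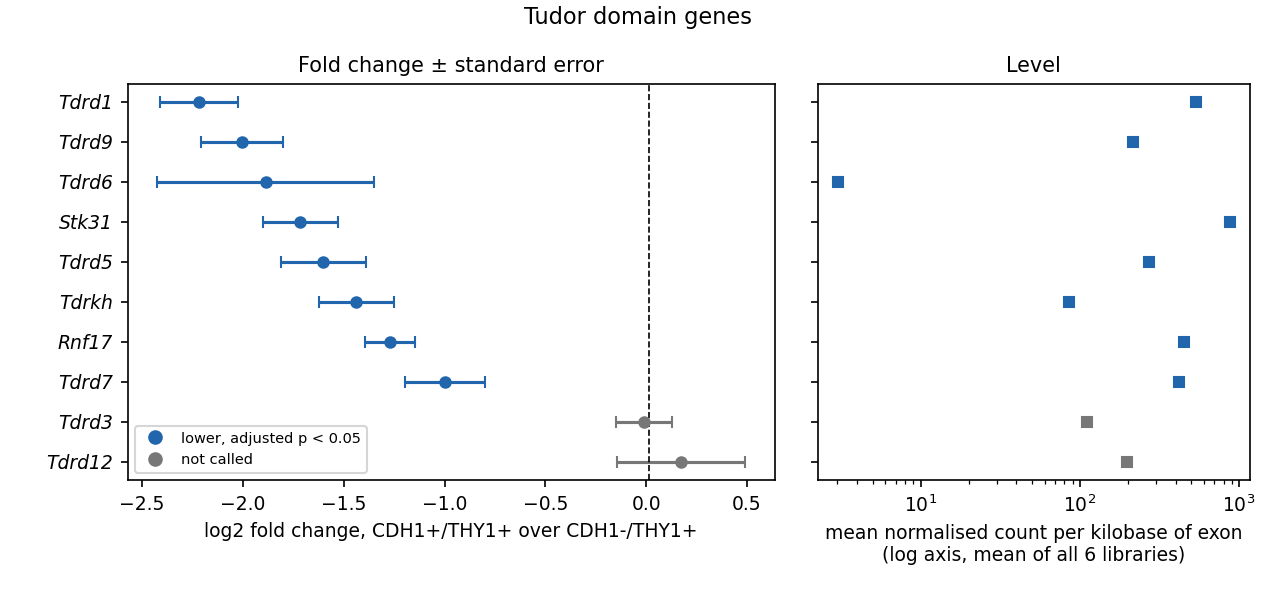
Log2 fold change between CDH1+/THY1+ and CDH1-/THY1+ cells with its standard error (left), and mean normalised count per kilobase of exon on a log axis (right), for each of the 10 Tudor genes from the authors' deposited table. The dashed line is the median of all tested genes, 0.01. The 8 called genes lie between -2.22 and -0.998, and Tdrd3 and Tdrd12 lie at -0.01 and 0.17.

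The called members differed in the size of their values. In the authors' deposited table the 95% interval of Tdrd1 ran from -2.60 to -1.84 and that of Rnf17 from -1.51 to -1.03. The difference between members was not tested, since the table gives no values per library. Lower calls of at least 2-fold made up 6.54% of the 19211 tested genes, against 7 of the 10. Among tested genes with a mean normalised count of at least 100, which 9 of the 10 members reach, 21.7% were lower. The median log2 fold change of the 10 was -1.52 in the authors' deposited table, with quartiles of -1.85 and -1.07, beside 0.01 over all tested genes.

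Levels between members were compared as mean normalised counts per kilobase of annotated exon, which average both populations. The order holds for this average only, since members differ in their fold change, and levels within each population were not compared. Stk31 had the highest level, 876 per kilobase, followed by Tdrd1 at 534, Rnf17 at 449 and Tdrd7 at 419. Tdrd5 had 274, Tdrd9 216 and Tdrd12 198, while Tdrd3 and Tdrkh had 111 and 85.7. Tdrd6 stood apart at 3.01 per kilobase, a level that 21.6% of all genes lay below, while 96.1% lay below Stk31. Which neighbours in this order differ beyond their spread was not tested, as the table gives no spread of levels. With the longest transcript as the length, Tdrd5 came to 505 per kilobase, as its annotated exons span 6937 bases against 3759 for its longest transcript.

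**Figure D2:**
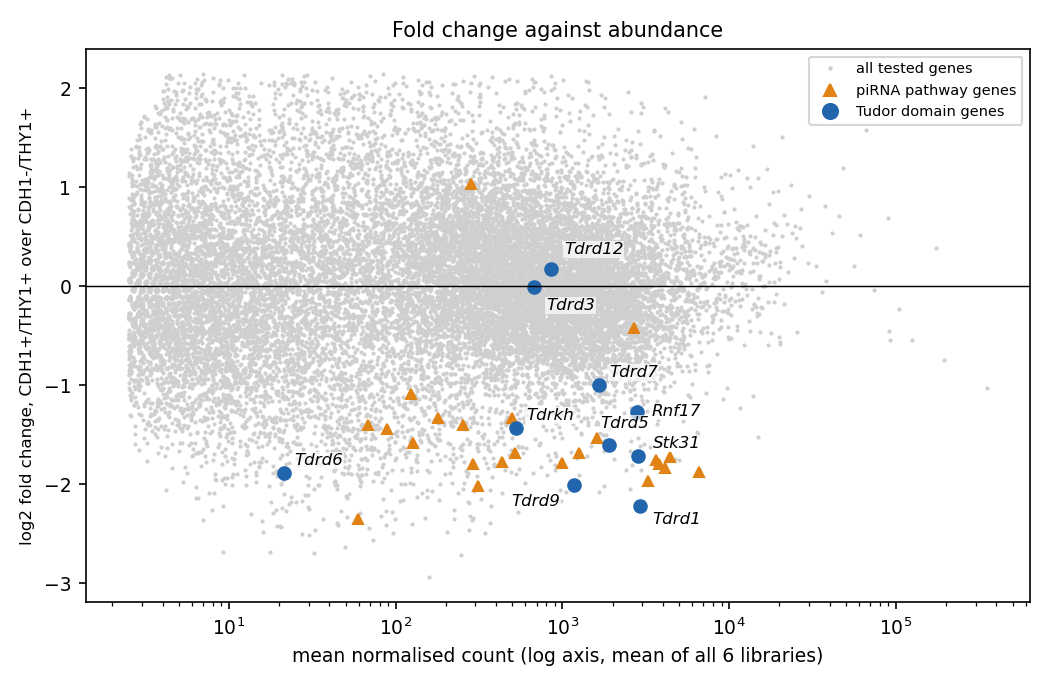
Log2 fold change against mean normalised count (log axis) for every tested gene in grey, the 23 other piRNA pathway genes with a row as orange triangles and the 10 Tudor genes as blue circles, from the authors' deposited table. Of the 10 Tudor genes, 7 lie at mean counts of 526 to 2904 and below -0.99, and Tdrd6 lies at a low count, 21.3.

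Most other genes of the piRNA pathway were lower too. Of 25 listed partners, Ddx39a and Gtsf2 had no row, 21 of 23 were lower, 1 was higher and 1 was not called. Their median log2 fold change in the authors' deposited table was -1.68. All 21 were lower by at least 2-fold. The share over all tested genes was 16.4% lower, 6.54% lower by at least 2-fold, and 17.1% higher. Spocd1, a factor of piRNA-directed DNA methylation, had the lowest value of the partners, -2.35 ± 0.40, in the authors' deposited table. Henmt1, which methylates the 3′ ends of piRNAs, had -2.02 ± 0.24, and the co-chaperone gene Fkbp6 -1.97 ± 0.22 in the authors' deposited table. The granule helicase gene Ddx4 had -1.73 ± 0.17, and the granule genes Mael and Asz1 -1.80 ± 0.20 and -1.68 ± 0.19 in the authors' deposited table.

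The partner that rose was Mybl1, whose protein A-MYB drives many pachytene piRNA genes in spermatocytes, at 1.04 ± 0.17 (adjusted p = 5.94e-08 by DESeq2 in the authors' deposited table). Mov10, a widely expressed relative of the piRNA helicase gene Mov10l1, was not called at -0.42 ± 0.22 (adjusted p = 0.113 by DESeq2 in the authors' deposited table). Mov10l1 itself had -1.84 ± 0.16 in the authors' deposited table.

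Tudor genes outside the piRNA granules were counted in the same way. Of 6 other Tudor genes of RNA metabolism, Tdrd10 and Tdrd15 had no row, and of the other 4, 2 were lower and 0 higher by DESeq2 (also 2 and 0 at an unadjusted p under 0.05). Akap1, a mitochondrial anchor with a KH and a Tudor domain like Tdrkh, had -0.42 ± 0.14 and the splicing factor gene Smndc1 -0.45 ± 0.13 in the authors' deposited table. The nuclease gene Snd1 and the spinal muscular atrophy gene Smn1 had 0.09 ± 0.14 and 0.29 ± 0.23 in the authors' deposited table and were not called. Of 21 genes of chromatin proteins with Tudor or Tudor-like domains, 4 were lower, 5 higher and 12 not called, shares near the 16.4% and 17.1% over all tested genes. Their median in the authors' deposited table was -0.04. Among these, the damage response gene Trp53bp1 had -0.85 ± 0.13 and the histone demethylase gene Kdm4c 1.69 ± 0.26 in the authors' deposited table.

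Genes of arginine methylation, the mark read by Tudor domains, comprised methyltransferases, their cofactors and Jmjd6. Of 14 listed, Prmt8 had no row, 2 of the other 13 were lower, 1 was higher and 10 were not called, beside 16.4% lower and 17.1% higher over all tested genes. Prmt5, which makes the symmetric dimethylarginine of Piwi proteins, had 0.12 ± 0.20 and its partner gene Wdr77 -0.26 ± 0.15 in the authors' deposited table, neither called. Coprs, a cofactor of PRMT5 on histones, fell by 0.86 ± 0.14 and Jmjd6 by 0.46 ± 0.15, while Carm1 rose by 0.62 ± 0.17 on the log2 scale in the authors' deposited table. Of 8 listed genes of DNA methylation and silencing that act after piRNAs, Dnmt3l had no row and Dnmt3c no adjusted p-value. Of the other 6, 2 were lower and 0 higher by DESeq2 (3 and 0 at an unadjusted p under 0.05). Dnmt3a had -0.65 ± 0.14 and Setdb1, also in the chromatin list, -0.56 ± 0.17 in the authors' deposited table.

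**Figure D3:**
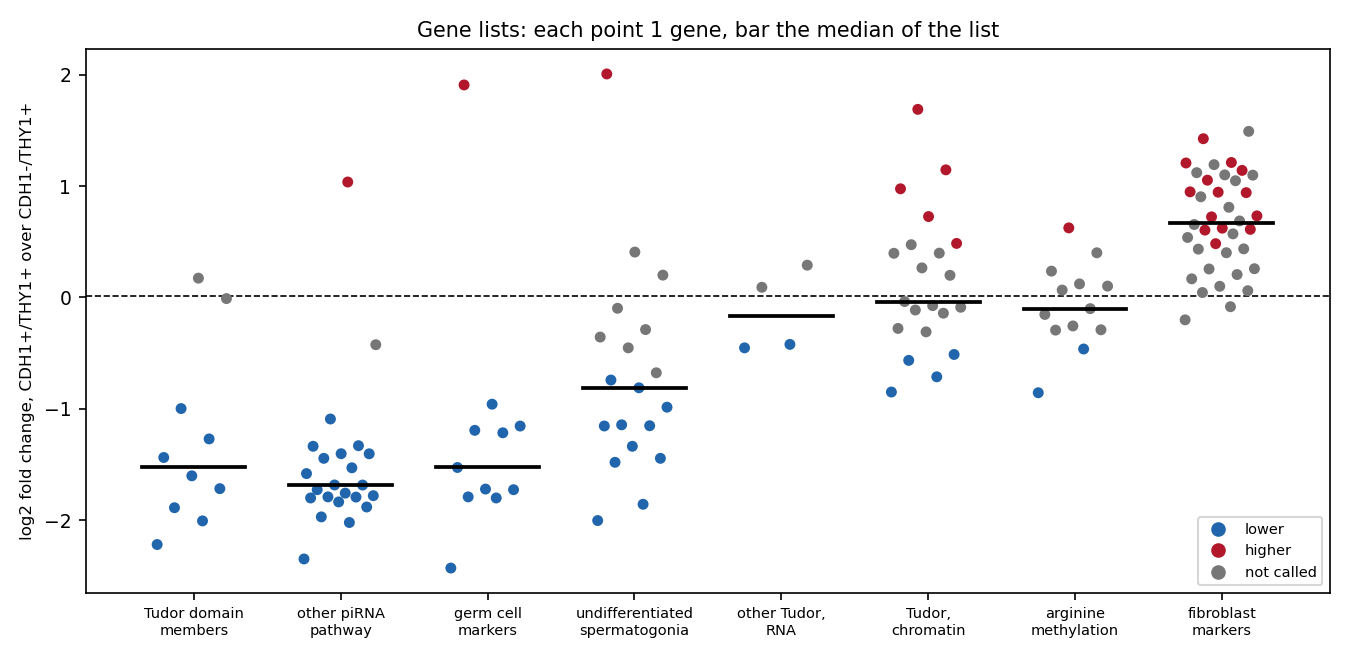
Log2 fold change of every tested gene of 8 lists from the authors' deposited table, 1 point per gene, blue where lower, red where higher and grey where not called, with a bar at the median of each list. The Tudor members, the other piRNA genes and the germ cell markers have medians of -1.52, -1.68 and -1.53, and the fibroblast markers 0.67.

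In the same comparison, markers of the labelled cell type were mostly lower, and those of feeder-type fibroblasts were either higher or not called. Of 12 general germ cell markers, Gcna had no row, 10 of the other 11 were lower and 1, Dppa3, was higher at 1.91 ± 0.61 in the authors' deposited table. The median of the 11 was -1.53 on the log2 scale in the authors' deposited table. This list shares 3 genes with the piRNA partners. Relative to that median, Tdrd1 lay 0.69 lower and Tdrd7 0.53 higher on the log2 scale, and Tdrd12 lay 1.70 higher. Of 20 genes of undifferentiated spermatogonia, 19 had a row, 11 were lower, 1 was higher and 7 were not called. The authors' deposited table gave these 19 a median of -0.81. Upp1 was the higher gene, at 2.01 ± 0.35 in the authors' deposited table. The uncalled genes include Etv5 at 0.20 ± 0.29, Lin28a at -0.29 ± 0.32 and Sall4 at -0.36 ± 0.28 in the authors' deposited table. Nanos2 and Nanos3 of this list are also among the piRNA partners. Of 38 fibroblast markers, 14 were higher, 0 lower and 24 not called by DESeq2 (22 higher and 0 lower at an unadjusted p under 0.05). The median log2 fold change of the 38 was 0.67 and 36 had a value above 0 in the authors' deposited table. None of the 38 was at 0: their mean normalised counts ran from 81.4 to 89729 and made up 2.96% of the summed mean counts, against 0.0908% for the 10 Tudor genes. Of 18 Sertoli cell markers, 14 were tested, with 3 higher and 2 lower by DESeq2. At an unadjusted p under 0.05 the counts were 6 higher and 2 lower. Their median log2 fold change was 0.84, and 10 of the 14 had a value above 0 in the authors' deposited table. Their median standard error was 0.51, beside 0.27 over all tested genes. Beside all of these marker counts, 16.4% of all tested genes were lower and 17.1% higher. In bulk samples, fewer germ cells and less RNA per germ cell cannot be told apart, and the part of feeder cells in the falls of the Tudor genes was not tested.

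The start regions of the members differed widely in CpG content. RefSeq windows from 250 bases before to 50 after a start site were found for 8 of the 10 genes, and Tdrd6 and Rnf17 had none in the sequence table. In the window nearest the GENCODE start, CG dinucleotides ranged from 4 in Tdrd7 to 48 in Tdrd5, with a median of 22.5. The median was 7 over 32841 windows of all genes, which count every window of a gene and not only the nearest. These windows come from 27018 genes, not limited to the genes tested here or matched to the members in abundance. The motif shares over all windows given below rest on the same windows. Counted like the members, the 19 piRNA partners with a window had a median of 18. Tdrd3 had 43, Stk31 28, Tdrkh 25, Tdrd1 20, Tdrd9 10 and Tdrd12 9. The members that were not called thus lay near both ends of the range, as did called members. Tdrd7 has 2 further windows, each with 32 CG, so its low count applies to 1 of its annotated starts.

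Of 4 motifs searched on both strands, the E-box CACGTG, a palindrome, occurred in the windows of Tdrd1, Tdrd9 and Stk31, with 2 matches in Tdrd9, and not in those of Tdrd3, Tdrd5, Tdrd7, Tdrd12 and Tdrkh. In Tdrd1 its first base lies 11 bases before the start site, and in Tdrd9 165 and 95 bases before it. In Stk31 it lies 120 bases before the start nearest the GENCODE one and 55 before the more upstream start that was used for the sequence shown. CACGTG was present in 7.15% of all windows and in 10.9% of those with at least 10 CG. Among the piRNA partners it occurred in 7 of 19 genes with a window. AACNGTC, a MYB-like word, was found in Tdrd5, Tdrd7 and Tdrd9, beside 8.01% of all windows. The 10-letter word of the factor NRF1 was found in Stk31 alone, beside 0.971% of all windows, and the E2F word GGCGGGAA in none of the 8, beside 2.19%. No matches of different words overlapped in these windows. A match describes letters in the window, not binding.

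**Figure D4:**
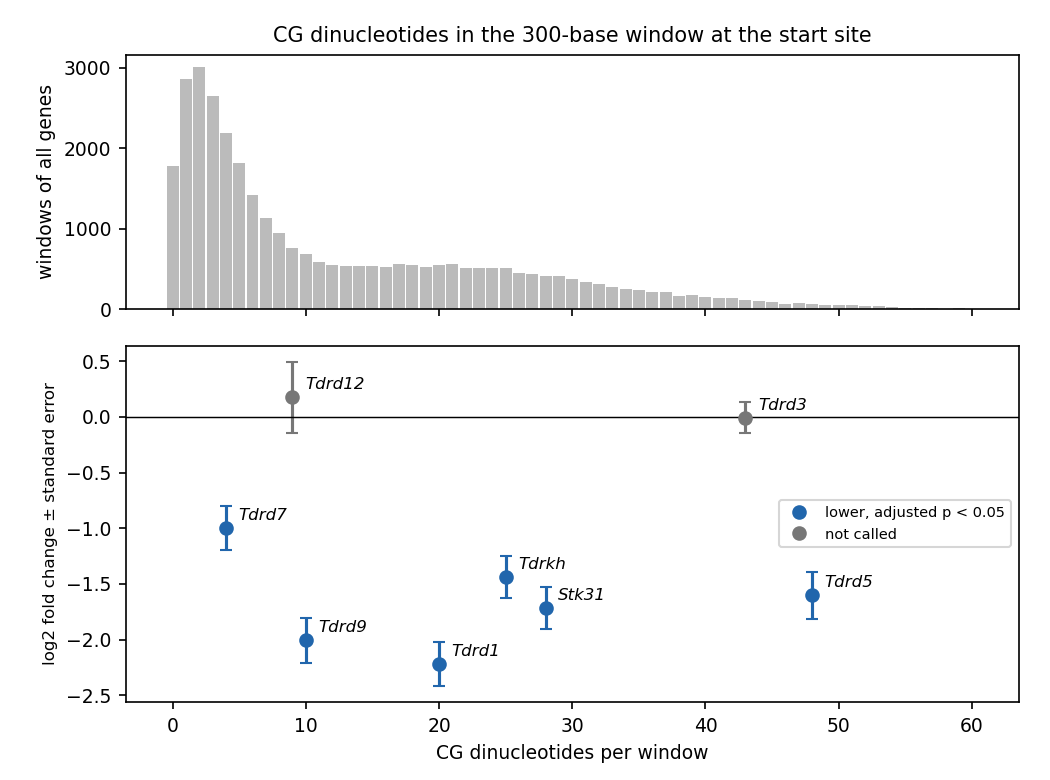
Number of CG dinucleotides in the 300-base window at the start site, for 32841 windows of all genes (top, bars) and for the 8 Tudor genes with a window against their log2 fold change with its standard error from the authors' deposited table (bottom). Called members (blue) range from 4 to 48 CG, and the uncalled Tdrd12 and Tdrd3 (grey) have 9 and 43.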

How the data were processed

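Libraries were strand-specific and depleted of ribosomal RNA, per the labels' protocols. Per the submitters' processing notes, Trimmomatic 0.32, TopHat2 2.1.1, featureCounts (Subread 1.5.0-p3) and DESeq2 1.12.3 (R 3.3.1) were run on GRCm38.p4. Counting settings and the model are not given in the sources used here.

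The authors deposited 1 table. The authors' mean normalised count is a signal value, recognised by a header that is a DESeq2 column name. It was read as read counts divided by size factors, averaged over all libraries, which the header itself does not state. The authors' fold changes and standard errors are on the log2 scale, the Wald statistic is a deposited score, and p-values and adjusted p-values were deposited for each gene. No standard error exceeded 0.64, also for genes with few reads, so fold changes may be shrunken towards 0 and understate change in low genes such as Tdrd6.

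Symbols, positions and exon lengths came from GENCODE M21 (GRCm38), matched for 22317 rows and not for 115. A gene was called at an adjusted p under 0.05. The planned count test could not be run, since the table holds no values per library. Other adjustments used statsmodels 0.14.6 and were checked on simulated data. Folds, intervals, levels and motif counts were computed in Python 3.11.15. The members and lists were chosen with earlier results of these data known. All 10 members are named. Of other lists, called genes and abundant uncalled genes (mean count of 100 or more) could be named, up to 12 a list. The 4 sequences were picked after their values were seen.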

Additional observations from a re-analysis of the deposited data

How the results depend on the processing

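The calls of all 10 Tudor genes, 8 lower and 0 higher, were the same at an adjusted p under 0.01, with Benjamini-Hochberg or Benjamini-Yekutieli adjustment over the 22330 rows that have a p-value, with fold changes centred on their median, and above a mean count of 10. With a fold of at least 2 also asked for, 7 remained lower, as Tdrd7 (log2 -0.998) fell just short of it. The piRNA partners had 21 lower and 1 higher under each of these settings. All of these settings reuse the deposited fold changes, standard errors or p-values. Alignment, counting and the authors' model were not varied, so dependence on them was not tested. Over all genes, calls moved more. An adjusted p under 0.01 left 2107 of 3292 higher genes, Benjamini-Yekutieli adjustment left 1967 of 3146 lower and 1666 of 3292 higher, and a fold of at least 2 left 1256 and 1435, since each asks for more. The level of Tdrd5 per kilobase moved from 274 to 505 with its longest transcript.

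No paired analysis was possible because the table holds no value per library, and leaving out a library could not be run for the same reason. How many libraries show each fall is therefore unknown. Depth per library is unknown, and with a mean count of 21.3 the value of Tdrd6 is the least precise.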

Other observations

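The genes next to the Tudor genes on the chromosome gave a mixed picture. Of the 20 nearest protein-coding genes with a row, 1 on each side of each member, 7 were lower, 3 higher and 10 not called in the authors' deposited table, with a median log2 fold change of -0.37. Over all tested genes 16.4% were lower and 17.1% higher. These genes were looked at after the members' values were known, and those named next were chosen after their values were seen.

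Vwa2, a gene of a matrix protein with von Willebrand factor A domains, starts 4236 bases after the end of Tdrd1 and had a log2 fold change of -2.13 ± 0.24 (adjusted p = 5.01e-17 by DESeq2 in the authors' deposited table), close to the -2.22 of Tdrd1 itself. Cenpj, a centriole gene 1728 bases after Rnf17, had -0.97 ± 0.19 and Pla2g7, a phospholipase gene 3133 bases before Tdrd6, -1.09 ± 0.24 in the authors' deposited table, both called lower. On the other side of Tdrd1, Ccdc186 had -0.55 ± 0.18 in the authors' deposited table. The 3 neighbours called higher were Diaph3, Mrpl9 and Npy. Diaph3, 275403 bases before Tdrd3, had 1.01 ± 0.19 and Mrpl9, 8649 bases after Tdrkh, 0.53 ± 0.16 in the authors' deposited table. Npy, 353208 bases after Stk31, had 2.02 ± 0.64 at a mean normalised count of only 5.83 in the authors' deposited table. Tdrd9, with a fall of 4.02-fold, stood between Atp5mpl and Aspg, which were not called at -0.28 ± 0.14 and 0.11 ± 0.33 in the authors' deposited table. Both neighbours of Tdrd12, Slc7a9 and Nudt19, were also not called, at -0.05 ± 0.52 and -0.10 ± 0.19 in the authors' deposited table.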
